A study of Mus musculus with 26 samples.

Results

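The genes described here were 10 immediate early genes: the AP-1 subunit genes Jun, Junb, Fos, Fosb, Fosl1 and Fosl2, the zinc finger genes Egr1 and Egr2, the bHLH factor gene Myc, and Ier3. They were picked by symbol, with earlier results of these data known. Each matched 1 row in both deposited tables, that is 10 of 53465 gene identifiers in the table of regenerating muscle and 10 of 55487 in the table of C2C12 cells. Ier3 is not a transcription factor but a short-lived stress response protein, and it is kept with the others because it belongs to the same early wave.

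Immediate early genes are transcribed within minutes of a growth factor, cytokine or stress signal without new protein synthesis, and their mRNAs are usually short-lived. ERK and other MAP kinases phosphorylate the ternary complex factors, which act with SRF at CArG boxes, and CREB acts at sites with the letters TGACG. Fos and Jun proteins pair through leucine zippers to form AP-1, Egr1 and Egr2 bind GC-rich DNA and are held back by the corepressors Nab1 and Nab2, and Myc pairs with Max at CACGTG to raise ribosome and growth genes. In muscle these genes are known for their response to injury and handling and for their part in myoblast proliferation.

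The study followed Mettl3, the enzyme that writes the m6A mark on mRNA, during myogenesis. Tibialis anterior muscle was injured with cardiotoxin (CTX), a snake toxin that kills muscle fibres, and 2 libraries each were made for days 0, 1, 3, 5 and 10. The methods describe 6-week-old male C57BL/6J mice with saline as the control treatment, and neither they nor the labels say whether day 0 muscle got saline or whether the libraries came from separate animals. C2C12 is a mouse myoblast line that fuses into myotubes when serum is withdrawn, and its 4 groups were control cells (Ctrl) and Cas9M3 cells, each in growth medium (GM, day 0) and on day 3 of differentiation (D3), with 2 libraries a group. The series' design text calls the second line a knockout, while the methods describe guides to the Mettl3 promoter with dCas9-KRAB, a silencer without nuclease activity, driven by the hUbC promoter in puromycin-selected cells. Which guide was in the sequenced cells is not stated, nor is what the Ctrl cells carried.

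Depth, inferred from the size of 1 read in the low values, was 14.2 to 18.8 M (mega) reads on genes in muscle and 14.2 to 18.9 M reads in replicate 2 of the cells, where every replicate 1 library was deeper, at 25.2 to 29.6 M reads. Mettl3 stood at 4.68 to 5.65 FPKM in the 4 Ctrl libraries and at 0.0805 to 0.331 FPKM in the 4 Cas9M3 libraries. In muscle, 5 of 10 libraries (all of day 0, all of day 10 and replicate 2 of day 3) held Xist, the RNA of the inactive X chromosome, at 5.77 FPKM or more, and the other 5 held no more than 0.152 FPKM and expressed Y-linked genes. Sex by this measure and day cannot be told apart for the comparison of day 1 or day 5 with day 0. Summed macrophage markers were 44.0 to 88.5 FPKM on day 0, 312 to 370 FPKM on day 1 and 1408 to 1426 FPKM on day 3, while summed fibre markers lay at 43892 to 45598 FPKM on day 0 and 11129 to 12816 FPKM on day 3. In whole tissue, a change in the number of cells of a type and a change in RNA per cell cannot be told apart, and the part of cell composition or sex in the values below was not tested. The Cas9M3 D3 libraries were low in fibre markers beside their controls: these summed to 9.43 to 12.1 FPKM against 409 to 456 FPKM in Ctrl D3. Most of the Ctrl D3 sum was Acta1, at 362 to 414 FPKM, and 1 of 4 fibre markers tested was called lower. For its Mettl3 knockdown cells the paper reports the opposite direction. It describes more MyHC protein and, on day 3 of differentiation, more fusion and higher fusion genes by RT-qPCR. The reason for this difference was not tested.

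The start regions of 3 members are shown because they hold the elements named above: Junb and Egr2, called on day 3 after injury, and Fos, called in no comparison. Each line gives the 120 bases before the first transcribed base, 5′ to 3′ on the gene's strand, from RefSeq on GRCm38.p6, with matches to a CArG box, TGACG (or its reverse complement) or TATAAA in capitals.
Junb, chr8:84978749-84978868, minus strand: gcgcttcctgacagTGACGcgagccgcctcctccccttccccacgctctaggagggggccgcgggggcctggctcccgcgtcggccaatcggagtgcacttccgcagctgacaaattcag
Egr2, chr10:67537749-67537868, plus strand: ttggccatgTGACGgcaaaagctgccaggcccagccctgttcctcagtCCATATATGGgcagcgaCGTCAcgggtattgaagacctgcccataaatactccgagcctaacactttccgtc
Fos, chr12:85473770-85473889, plus strand: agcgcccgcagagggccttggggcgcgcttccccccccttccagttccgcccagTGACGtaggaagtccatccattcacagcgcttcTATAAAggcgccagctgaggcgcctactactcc

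Windows of 300 bases (250 before to 50 after the start) were held for 7 of the 10 members, Egr2 with several overlapping ones. On both strands, TGACG was found for 4 of the 7 members (Fos, Fosb, Junb and Egr2) and in 20.8% of all 32851 windows, a CArG box for 1 (Egr2) and in 1.63%, and TATAAA for 2 (Fos and Junb) and in 13.6%. The TATAAA of Fos lay before the start (offset -33), while that of Junb lay in transcribed sequence (offset 0 from the first base). The AP-1 letters TGANTCA were found for 0 of the 7 members and in 7.81% of all windows, and CACGTG for 1 (an upstream Egr2 start) and in 7.15%. Myc, Fosl1 and Egr1 had no window, and sites outside the windows were not searched, so a missing match does not show that a gene lacks the element. Counts are per member and percentages per window, so they are not on the same scale. A match describes letters and says nothing of binding.

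The first question was when after injury each gene was high. On day 1, Fosl1 and Myc were called higher than on day 0, and on day 3, Junb, Fosl2 and Egr2 were. By day 10 no member was called against day 0. Values are FPKM, which here scale reads by gene length and by a factor for each library that does not follow its reads on genes alone. A gene is called where limma on log2(FPKM + 0.1) gave an adjusted p no higher than 0.05. These calls were not equally firm. In fits with another setting and all libraries kept, Fosl1 was called on day 1 in 3 of 9 and Myc in 6 of 9. On day 3, Egr2 was called in 3 of 8 such fits, and Junb and Fosl2 in all 9. Of the 10 members 9 entered the tests; Fosb reached the minimum of 0.5 FPKM in 1 of 10 muscle libraries and 0 of 8 cell libraries.

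**Figure D1:**
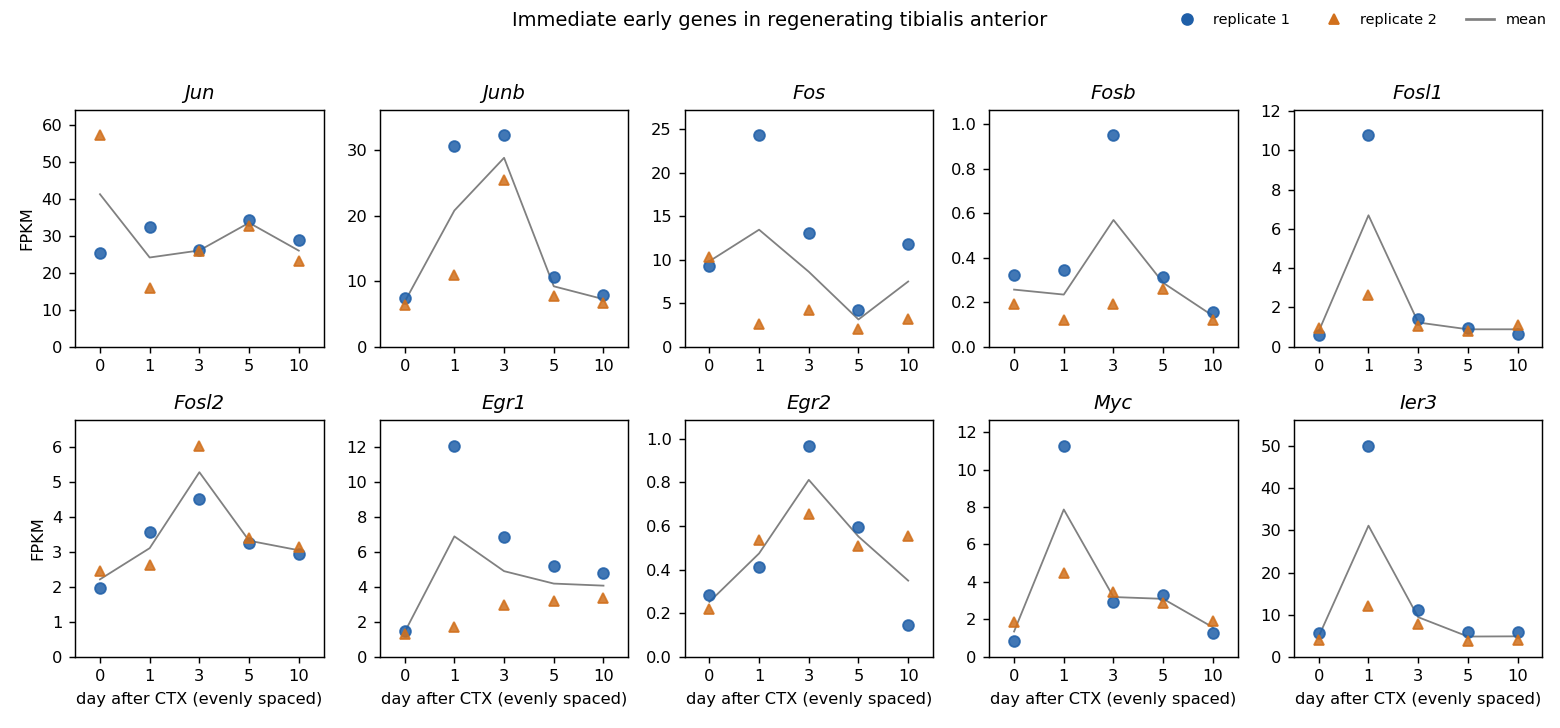
FPKM (linear axis from 0, own scale per gene) of the 10 genes in the 2 libraries of each day after CTX, circles for replicate 1 and triangles for replicate 2, with a line through the means. Fosl1, Myc and Ier3 have their highest mean on day 1, Junb, Fosl2 and Egr2 on day 3, and replicate 1 of day 1 lies above replicate 2 for 9 of the 10 genes.

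Among the Jun genes, Jun, the founding AP-1 subunit, was the most abundant member on day 0, at 25.4 and 57.1 FPKM. It stood at 32.5 and 15.8 FPKM on day 1, 26.1 and 26.0 FPKM on day 3, 34.3 and 32.8 FPKM on day 5, and 28.9 and 23.1 FPKM on day 10. Its widest spread was between the day 0 libraries, every other day overlapped their range, and it was called in no comparison.

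Junb, a Jun relative that activates more weakly and can oppose Jun, behaved differently. Its exons overlap those of Prdx2 on the other strand by 173 bp. It stood at 7.40 and 6.31 FPKM on day 0. The day 1 libraries, at 30.7 and 10.9 FPKM, were both above it. Day 3 was highest, at 32.3 and 25.5 FPKM, followed by 10.6 and 7.82 FPKM on day 5 and 7.88 and 6.65 FPKM on day 10. The rise on day 3 was 2.05 on the log2 scale (SE 0.43, adjusted p = 0.00608), and the fall from day 3 was -1.64 by day 5 (adjusted p = 0.0457) and -1.97 by day 10 (SE 0.43, adjusted p = 0.00982). On day 1 the difference of 1.41 (SE 0.43) had an adjusted p of 0.0895.

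The ratio of Junb to Jun within a library, both per length, was 0.291 and 0.111 on day 0. It then was 0.945 and 0.691 on day 1, and on day 3 it reached 1.24 and 0.978. It was 0.310 and 0.239 on day 5 and 0.273 and 0.288 on day 10. The 4 libraries of days 1 and 3 lay between 0.691 and 1.24 and the other 6 between 0.111 and 0.310, so these ranges did not overlap. Jun was thus above Junb on days 0, 5 and 10, while on day 3 the 2 genes overlapped at the top of the list.

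Among the Fos genes, Fos itself, the prototype immediate early gene, gave no stable course. It was at 9.32 and 10.3 FPKM on day 0, 24.3 and 2.62 FPKM on day 1, 13.0 and 4.18 FPKM on day 3, 4.23 and 2.03 FPKM on day 5, and 11.8 and 3.17 FPKM on day 10. After injury replicate 1 exceeded replicate 2 on every day, and on day 1 the 2 libraries fell on either side of day 0. The day 1 difference was -0.28 (95% interval -2.76 to 2.19), an interval that holds large changes in both directions.

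Fosl1, which encodes Fra-1 and lacks a transactivation domain, stood at 0.611 and 0.965 FPKM on day 0. Its day 1 values were 10.8 and 2.63 FPKM. It was back at 1.42 and 1.04 FPKM on day 3, 0.971 and 0.802 FPKM on day 5 and 0.670 and 1.10 FPKM on day 10. Both day 1 libraries were above all 8 others. The rise on day 1 was 2.65 (SE 0.59, adjusted p = 0.0449) and the fall from day 1 to day 3 was -2.04 (adjusted p = 0.0346). Its exons overlap those of Ccdc85b on the other strand by 1163 bp, and the strand setting of the counting is not stated.

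Fosl2, which encodes Fra-2, changed less but with close replicates. It stood at 1.97 and 2.46 FPKM on day 0, 3.59 and 2.63 FPKM on day 1, 4.52 and 6.05 FPKM on day 3, 3.25 and 3.39 FPKM on day 5, and 2.94 and 3.15 FPKM on day 10. Both day 3 libraries were above all 8 others. The rise from day 0 to day 3 was 1.21 (SE 0.21, adjusted p = 0.00284), that from day 1 to day 3 was 0.75 (adjusted p = 0.0321), and the change from day 3 to day 10 was -0.76 (adjusted p = 0.0251).

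Fosb, the member with a known truncated brain isoform, lay at 0.121 to 0.949 FPKM in muscle, which was 10 to 117 reads a library, too few to follow. The highest value was in replicate 1 of day 3, beside 0.190 FPKM in replicate 2.

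Within the Fos family, the summed FPKM was 76.2% and 74.0% Fos on day 0, against 62.3% and 32.7% on day 1. The share of Fosl1 was 5.00% and 6.93% on day 0 and 27.6% and 32.9% on day 1, both day 1 libraries above the 4.30% to 14.6% of the other 8. Although the day 1 libraries differed in Fos itself, they were alike in this share. Of the 2033 exon bases of Fosl1, 1163 overlap Ccdc85b, so without a known strand setting the Fosl1 share may hold reads of Ccdc85b. On day 3 Fosl2 made up 22.7% and 52.8% of the sum.

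**Figure D2:**
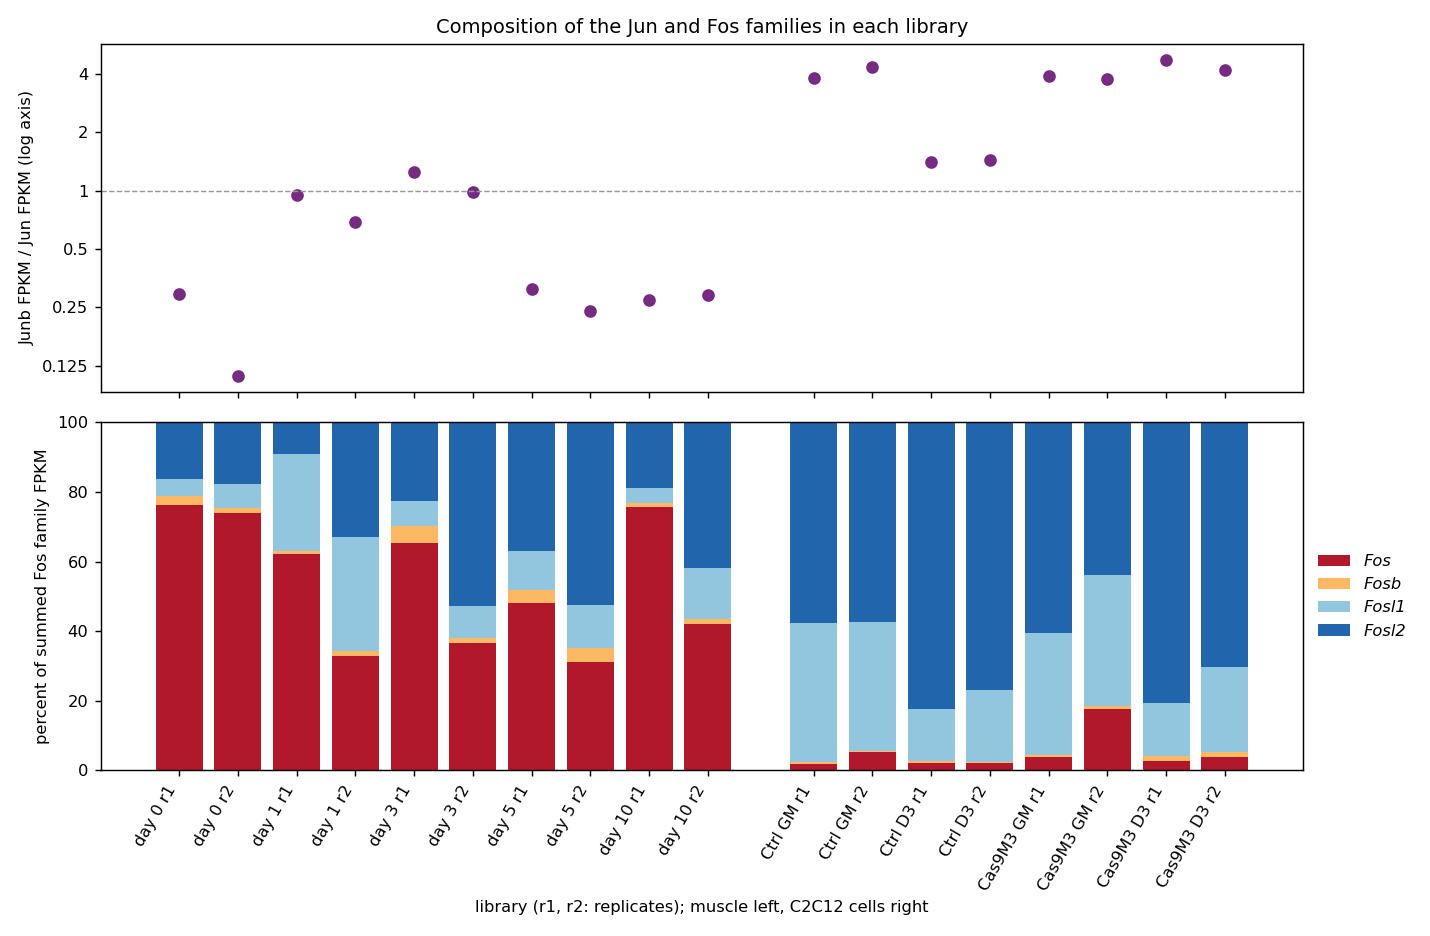
Upper panel, Junb FPKM divided by Jun FPKM (log axis) in each of the 10 muscle and 8 C2C12 libraries; lower panel, the percent of summed FPKM of Fos, Fosb, Fosl1 and Fosl2 that each gene holds. The ratio is 0.691 to 1.24 on days 1 and 3 against 0.111 to 0.310 on the other days, and Fosl1 and Fosl2 hold most of the sum in every C2C12 library.

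Of the EGR genes, Egr1, an early sensor of serum and stretch, was at 1.50 and 1.32 FPKM on day 0. Its day 1 values were 12.1 and 1.70 FPKM. It stayed at 6.85 and 2.97 FPKM on day 3, 5.19 and 3.20 FPKM on day 5, and 4.77 and 3.38 FPKM on day 10. All 8 libraries after injury were above both day 0 libraries. Its log2 differences against day 0 lay between 1.45 and 1.63 on the 4 days (SE 0.81 each), with adjusted p-values of 0.242, 0.136, 0.214 and 0.574, so none was called.

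Egr2, best known from myelinating Schwann cells and immune cells, was low throughout. It stood at 0.283 and 0.220 FPKM on day 0, 0.411 and 0.538 FPKM on day 1, 0.969 and 0.655 FPKM on day 3, 0.596 and 0.507 FPKM on day 5, and 0.144 and 0.555 FPKM on day 10. Day 3 was above all other libraries, and its rise was 1.36 (SE 0.48, adjusted p = 0.0471) on 45 to 65 reads against 10 to 12 on day 0.

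Myc, a driver of ribosome production and cell growth, was at 0.827 and 1.87 FPKM on day 0. Its day 1 values were 11.3 and 4.45 FPKM, a rise of 2.41 (SE 0.48, adjusted p = 0.0370). It stood at 2.91 and 3.47 FPKM on day 3, 3.30 and 2.89 FPKM on day 5, and 1.26 and 1.89 FPKM on day 10. Days 3 and 5 were above both day 0 libraries and alike, with differences of 1.28 (adjusted p = 0.0600) and 1.24 (adjusted p = 0.0964), and day 10 overlapped day 0.

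Ier3, a target of NF-κB and p53 that modulates survival and ERK signalling, had the highest mean of the members on day 1. It stood at 5.68 and 4.04 FPKM on day 0, 50.1 and 12.1 FPKM on day 1, 11.1 and 7.69 FPKM on day 3, 5.81 and 3.81 FPKM on day 5, and 5.85 and 3.87 FPKM on day 10. Both day 1 libraries were above all others, but the difference of 2.34 (SE 0.60) had an adjusted p of 0.0612.

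**Figure D3:**
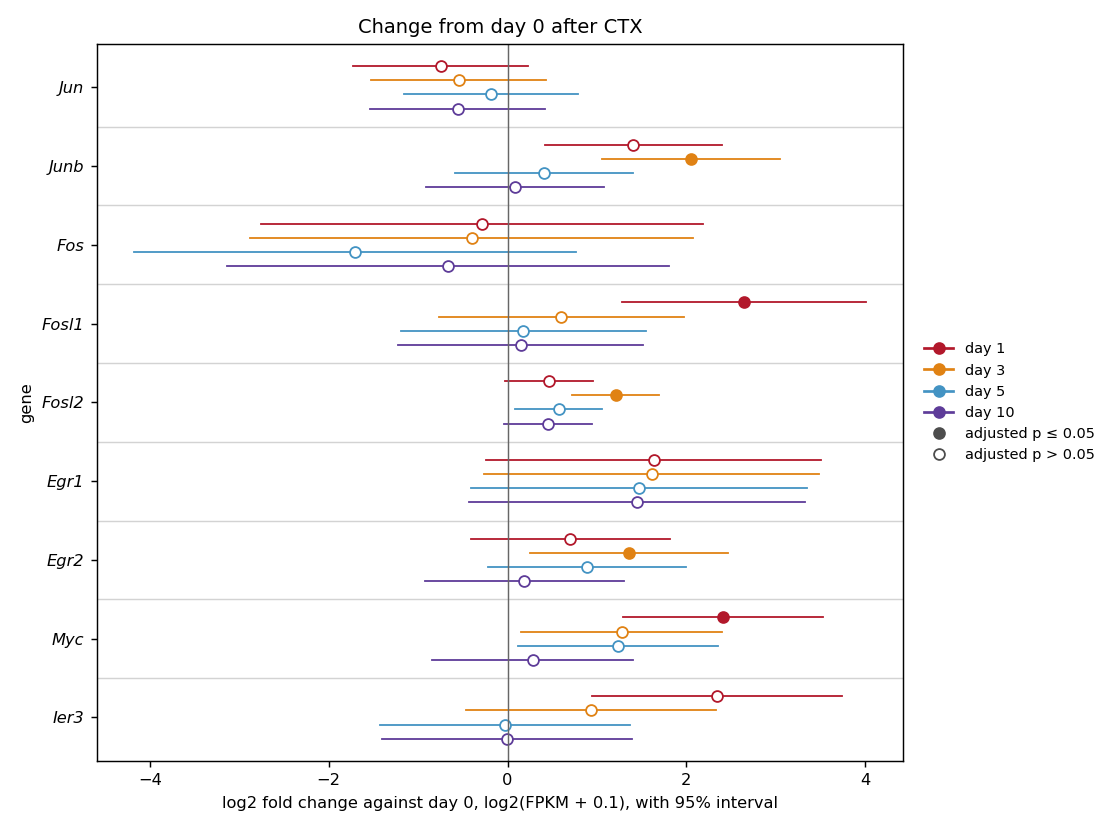
Log2 fold change of 9 genes on days 1, 3, 5 and 10 against day 0, on the log2(FPKM + 0.1) scale, with 95% intervals from limma; filled points have an adjusted p of at most 0.05. Fosl1 and Myc are filled on day 1, Junb, Fosl2 and Egr2 on day 3, and none on day 5 or 10.

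By level, Jun, Fos and Junb led on day 0, each pair of neighbours apart from each other, and Ier3, Jun, Junb and Fos led on day 1 with overlapping libraries. On day 3 Junb and Jun overlapped at the top and lay apart from Ier3. On days 5 and 10 Jun led alone, and the next gene was Junb on day 5 and Fos, overlapping Junb, on day 10.

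Counted against day 0, 2 of 9 members rose on day 1, where 3.53% of all 16753 genes tested rose and 2.47% fell. On day 3, 3 of 9 rose, where 24.5% of all genes rose and 24.3% fell, so that share was near the background. On day 5, 0 of 9 were called where 25.5% of all genes were, with 2 members at an unadjusted p under 0.05. On day 10, 0 of 9 were called beside 0.00597% of all genes, with 0 members at an unadjusted p under 0.05.

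The libraries of 7 of 9 members lay above those of day 0 without overlap on day 1 and of 7 on day 3, where 25.5% and 38.9% of all genes did. On day 5, 5 members lay above and 1 (Fos) below day 0, where 70.8% of all genes did not overlap, and on day 10, 2 (Fosl2 and Egr1) lay above, beside 19.2%. The median log2 difference of the 9 members was 1.41 on day 1 and 1.21 on day 3, then 0.41 (day 5) and 0.15 (day 10), against medians within 0.01 of 0 over all genes. From day 1 to day 3, 2 of 9 were called, 1 in each direction, beside 31.1% of all genes. Which members were called here changed with the library left out. Without replicate 1 of day 1 the change was -1.05 for Fosl1 and 0.963 for Fosl2, and without replicate 2 of day 1 it was -3.04 and 0.532. From day 3 to day 5, 1 of 9 (Junb) fell, beside 5.46%, a call made in 2 of the 10 fits that left out 1 library (either of day 1), and 5 lay lower without overlap, beside 33.4%. From day 3 to day 10, 2 of 9 fell, beside 18.8%, and 5 lay lower without overlap, beside 37.1%.

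The 2 day 1 libraries differed more in these genes than in most. Replicate 1 was higher for 9 of 10 members, and the gap exceeded 1 on the log2 scale for 8 of 10, where it did for 12.9% of all genes tested. The gap was 3.16 for Fos, 2.76 for Egr1, 2.04 for Ier3, 1.99 for Fosl1, 1.49 for Junb and 1.32 for Myc. Egr2 went the other way, at -0.32, and Fosl2 differed by 0.43. Heat shock genes, which respond to temperature and proteotoxic stress, summed to 1052 FPKM in replicate 1 and 776 FPKM in replicate 2 of day 1, and to 545 to 726 FPKM in the other 8 libraries. Neutrophil markers summed to 20.6 and 11.5 FPKM and fibroadipogenic markers to 52.2 and 162 FPKM in the same 2 libraries. The part of these differences in the members' values was not tested.

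Which members were called on day 1 against day 0 changed with the library left out. Most fits that left out 1 library called fewer members, and most also called fewer genes in all. Without replicate 1 of day 1 the rises on day 1 were 1.65 for Fosl1, 1.75 for Myc, 1.32 for Ier3, 0.664 for Junb and 0.253 for Egr1. Without replicate 2 of day 1 they were 3.64, 3.07, 3.36, 2.15 and 3.015. When the presence of Xist was added to the model, 0 members were called on day 1, where 0 of all 16753 genes were. On day 3, 2 were called, Fosl2 and Junb, beside 5855 genes. Only day 3 holds libraries with and without Xist, so the term rests on the gap between its 2 libraries. For day 1 this fit cannot decide. For day 3 it cannot tell sex by this measure from other differences between those 2 libraries. Fosl2 and Junb on day 3 were called in all 9 fits with another setting and all 10 that left out 1 library, whereas Egr2 was called in 3 of 8 and 2 of 10.

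Other parts of the pathway, from lists of textbook members chosen with earlier results of these data known, were read beside these genes. Of 22 other immediate early genes tested, 4 rose and 0 fell on day 1: Gadd45a, a growth arrest gene, by 1.73, the nuclear factor gene Csrnp1 by 1.53, Zfp36, which speeds decay of AU-rich mRNAs, by 1.29, and Klf6 by 0.90 (adjusted p = 0.0172 to 0.0273). On day 3, 5 rose and 4 fell, with Gadd45a at 1.36, Zfp36 at 1.17 and Sik1, a salt-inducible kinase, at 1.13 leading the rises, and Arc (-1.48), Btg2 (-1.03) and Klf4 (-0.87) leading the falls. The median of the list was 0.10 on day 1 and 0.15 on day 3, close to all genes.

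Shares of all these lists are to be read beside those over all genes. On day 1, 3.53% of all genes rose and 2.47% fell, and on day 3, 24.5% rose and 24.3% fell. Of 13 AP-1 partner genes, 0 were called on day 1, and Jund, the constitutive Jun gene, stood at means of 28.2 FPKM on day 1 and 40.2 FPKM on day 0. On day 3, 3 rose and 4 fell, shares near those over all genes. The rises were Jdp2, a repressor of AP-1, by 2.34, and the lymphoid and myeloid factors Batf by 2.16 and Batf3 by 1.89, and the largest falls were Mafk (-1.22), Batf2 (-0.75) and Mafg (-0.65).

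Of 13 AP-1 target genes tested, 7 rose and 0 fell on day 1, with a median of 1.92, and 10 rose and 0 fell on day 3, with a median of 2.40. The largest rises on day 1 were Spp1, which encodes osteopontin, by 5.11, the monocyte chemokine Ccl2 by 5.09, and the protease inhibitor Timp1 by 3.82. Macrophages and fibroblasts are known to express several of these. On day 1, 3 of 8 macrophage and monocyte markers rose, while 0 of 6 fibroadipogenic markers were called and their sums, 52.2 to 162 FPKM, overlapped day 0 at 71.0 to 195 FPKM; the part of either cell type was not tested. Of 22 Myc targets, 3 rose on day 1, the polyamine enzymes Odc1 by 2.18 and Srm by 1.61 and the nucleolar Nop58 by 0.96, while the transferrin receptor gene Tfrc fell (-1.39). On day 3, 5 rose and 3 fell, with Srm (1.24), Ppan (1.05) and Npm1 (0.95) highest and Ldha (-1.64), Tfrc (-1.20) and Eif4e (-0.86) lowest. Of 11 genes of the Myc network, 0 were called on day 1, and on day 3, 2 rose (Mycl by 3.66 and the Myc antagonist Mxd3 by 2.11) and 3 fell (Mycn at -1.73, Mxi1 at -1.70 and Mlxip at -1.20).

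Upstream, 0 of 13 MAPK kinase genes were called on day 1, and 1 rose and 11 fell on day 3, with a median of -0.74. Mapk3, which encodes ERK1, rose by 0.77, while the p38 kinase activators Map2k6 (-2.24) and Map2k3 (-1.62) fell most. Fibre markers fell in the same libraries (6 of 6 on day 3). Of 14 feedback genes, 1 fell on day 1, Dusp8 (-0.999), and on day 3, 3 rose and 3 fell, led by the nuclear ERK phosphatase gene Dusp2 at 2.95 and Dusp8 at -1.95. Nab2, a corepressor induced by EGR factors, rose by 1.27 on day 3 (1 of 2 corepressors), and Srf fell by 0.58 on the log2 scale (1 of 6 SRF and ternary complex factor genes). Of 3 EGFR ligand and receptor genes tested, Egfr rose by 1.58 and Egf fell, at -2.02, on day 3. Of 10 heat shock genes, 3 rose on day 1 (Hspb1 by 1.86, Hsp90aa1 by 1.15 and Hsph1 by 0.81), and on day 3, 3 rose and 2 fell.

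The genes whose log2 levels followed each member most closely over the 10 muscle libraries were listed among 12285 genes with a mean of at least 1 FPKM. They were Acot9 (Pearson r = 0.987), Nacc1 (0.980) and Wwtr1 (0.973) for Myc, Trmt61a (0.983), Eif6 (0.978) and Zfand2a (0.975) for Fosl1, and Ncl (0.978), Dera (0.975) and Gtf2a1 (0.971) for Ier3. They were Npm1 (0.977), Atp6v1h (0.977) and Gas5 (0.976) for Junb, Dlgap4 (0.981), Ttll12 (0.978) and Atp1b3 (0.972) for Fosl2, and Il33 (0.962), Eif2ak3 (0.959) and Twf1 (0.942) for Egr2. The closest were looser for Egr1 (Tmem208, 0.940, Snrnp40, 0.910, and Gm9929, 0.900), Fosb (Unc13a, 0.901, H2afz, 0.883, and Vrk1, 0.866), Jun (Tgfb2, 0.873, its antisense neighbour Junos, 0.863, and Fut8, 0.839) and Fos (Akap6, 0.867, Utp3, 0.864, and Dok5, 0.863). Among the members themselves Fosl1 and Ier3 were closest (0.920), then Fosl1 and Myc (0.877). These correlations share day, library and depth and are descriptions; Junos overlaps Jun by 232 bp of exon, so without a known strand setting their reads may be the same.

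The second question was how the genes stood in C2C12 cells during differentiation and with Mettl3 repressed. Levels in the separately scaled cell table cannot be set against muscle, but the order within the table could be read. Junb led in all 4 groups and lay apart from the next gene in each, and Fosb was last. Fos was far below Fosl1 and Fosl2: Fosl2 made up 43.7% to 82.4% of the Fos family FPKM, Fosl1 15.0% to 40.1% and Fos 1.77% to 17.6% over the 8 libraries. The Fosl1 share may hold reads of Ccdc85b here too.

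**Figure D4:**
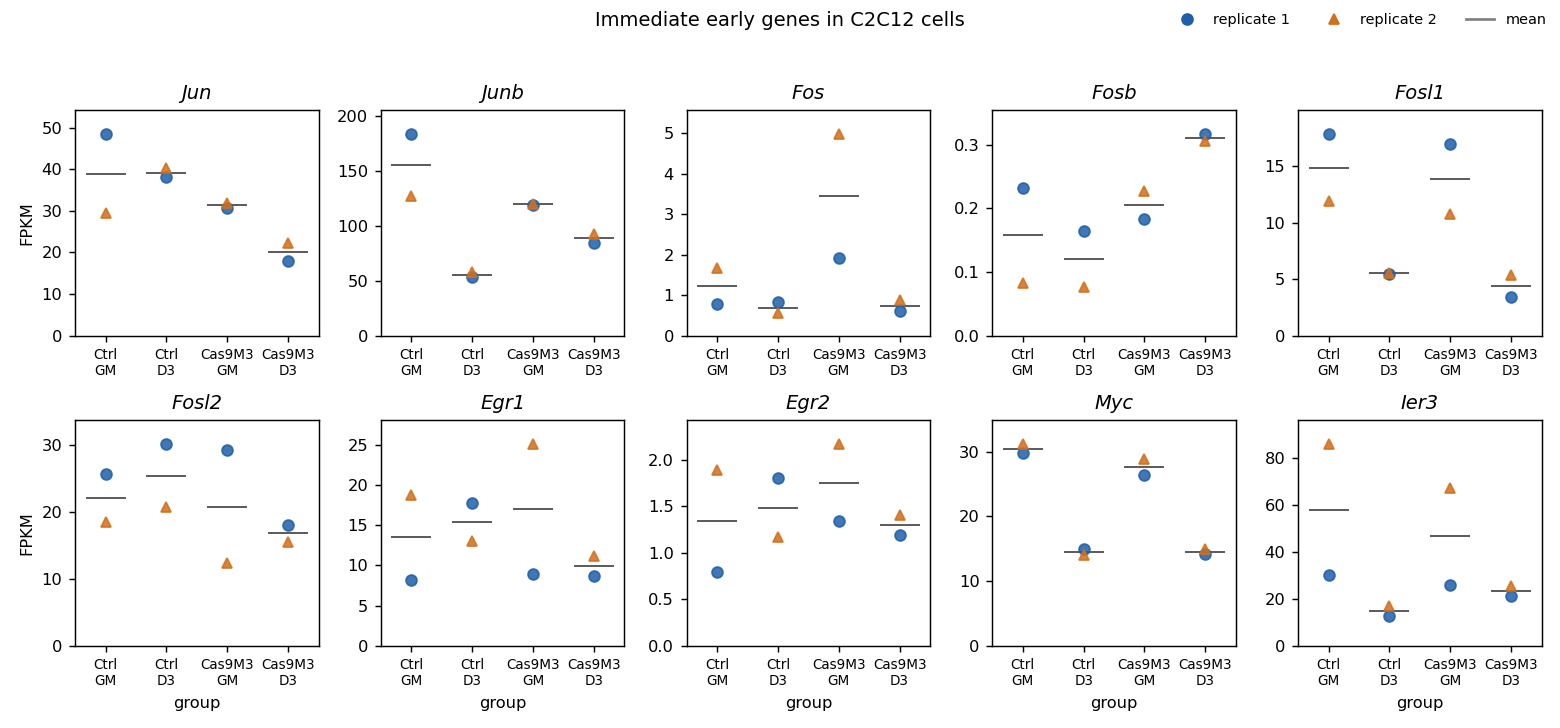
FPKM (linear axis from 0, own scale per gene) of the 10 genes in C2C12 cells, circles for replicate 1 and triangles for replicate 2, with a bar at each mean. Junb and Myc are lower in D3 than in GM in both lines, and Egr1 and Ier3 differ widely between the replicates of GM.

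From GM to D3 in Ctrl cells, Junb and Myc fell. Junb stood at 184 and 127 FPKM in GM and at 53.1 and 58.0 FPKM in D3, a change of -1.46 (SE 0.22, adjusted p = 0.0464). Myc stood at 29.8 and 31.1 FPKM in GM and at 14.9 and 14.0 FPKM in D3, a change of -1.07 (SE 0.15, adjusted p = 0.0394). Neither pair of groups overlapped, and Myc had the closest replicates of all members in Ctrl GM. Over the fits that left out 1 library, the Junb change lay between -1.725 and -1.198 and the Myc change between -1.113 and -1.03. Most such fits called neither gene, and most also called fewer genes in all.

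Fosl1 was at 17.8 and 11.9 FPKM in GM and at 5.47 and 5.59 FPKM in D3, without overlap, with a difference of -1.38 (SE 0.34, adjusted p = 0.121). Ier3 was at 30.2 and 85.9 FPKM in GM and at 12.6 and 17.1 FPKM in D3, also without overlap, with a difference of -1.79 (SE 0.61, adjusted p = 0.211). In all, 2 of 9 members fell, where 0.376% of 13824 genes did, and 4 lay lower without overlap, where 22.4% did.

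The other members overlapped between GM and D3 of Ctrl cells. Jun stood at 48.4 and 29.4 FPKM in GM and 38.0 and 40.2 FPKM in D3, and Fosl2 at 25.6 and 18.4 FPKM and 30.1 and 20.8 FPKM. Egr1 stood at 8.24 and 18.8 FPKM in GM and 17.7 and 13.0 FPKM in D3, and Egr2 at 0.796 and 1.89 FPKM and 1.80 and 1.17 FPKM. Fos was at 0.789 and 1.67 FPKM in GM and 0.822 and 0.562 FPKM in D3, on 22 to 59 reads, and Fosb at 0.0770 to 0.232 FPKM, on 5 to 46 reads.

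From GM to D3 in Cas9M3 cells, 0 of 9 members were called, where 0.0289% of all genes (4 genes) were, and 4 members had an unadjusted p under 0.05. Myc was at 26.4 and 28.9 FPKM in GM and at 14.2 and 14.9 FPKM in D3, a difference of -0.92 (SE 0.15, adjusted p = 0.0814), and it was called without either Ctrl GM library. Its change differed from that in Ctrl by 0.15 (95% interval -0.36 to 0.66). Fosl1 was at 17.0 and 10.7 FPKM in GM and at 3.42 and 5.36 FPKM in D3 (-1.64, adjusted p = 0.123). Fos was at 1.91 and 4.98 FPKM in GM and at 0.595 and 0.868 FPKM in D3 (-1.96, SE 0.56, adjusted p = 0.223). Of the 9 members, 6 lay lower in D3 without overlap, where 24.1% of all genes did.

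Junb in these cells was at 120 FPKM in both GM libraries and at 84.6 and 92.8 FPKM in D3, a difference of -0.43 (SE 0.22, adjusted p = 0.525). The difference between the 2 lines in this change was 1.03 (SE 0.32, 95% interval 0.26 to 1.80), with an adjusted p of 0.436. Over all 13824 genes 0 were called for this difference (0%), with 1198 at an unadjusted p under 0.05, and 0 of 9 members were, with 1 at an unadjusted p under 0.05.

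Between Cas9M3 and Ctrl cells in GM, 0 of 9 members were called, and 0% of all genes, with 0 members and 1244 genes at an unadjusted p under 0.05. Junb (119.6 and 119.7 against 184 and 127 FPKM) and Myc were lower without overlap and Fos (1.91 and 4.98 against 0.789 and 1.67 FPKM) was higher, so that 3 members did not overlap, beside 29.4% of all genes. The Fos difference was 1.35 (95% interval -0.0017 to 2.70, adjusted p = 0.556), and that of Myc was -0.14 (95% interval -0.50 to 0.22). The Ctrl GM libraries were far apart in general, with a gap over 1 on the log2 scale for 32.4% of genes.

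In D3, 0 of 9 members were called between Cas9M3 and Ctrl cells, beside 1.98% of all genes, and 2 members had an unadjusted p under 0.05. Jun was at 17.9 and 22.2 FPKM against 38.0 and 40.2 FPKM in Ctrl, without overlap, with a difference of -0.97 (SE 0.26, 95% interval -1.60 to -0.33, adjusted p = 0.125). Junb went the other way, at 84.6 and 92.8 against 53.1 and 58.0 FPKM, with a difference of 0.67 (SE 0.22, 95% interval 0.13 to 1.22, adjusted p = 0.189). The ratio of Junb to Jun was 1.40 and 1.44 in Ctrl D3 and 4.71 and 4.18 in Cas9M3 D3, beside 3.74 to 4.34 in the 4 GM libraries.

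In a fit of the D3 groups alone, Jun (adjusted p = 0.0129) and Junb (adjusted p = 0.0231) were both called, as 2828 genes then were against 274, and Jun was also called without either Ctrl GM library. The Cas9M3 D3 cells also differed in fibre and myoblast markers, summed myoblast markers being 21.0 to 24.0 FPKM against 328 to 344 FPKM (log2 differences of -5.14 for Ckm and -2.80 for Myod1), and the part of this in the Jun and Junb values was not tested. In all, 6 members did not overlap in D3, 2 higher and 4 lower, beside 63.5% of all genes.

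Myc overlapped between the lines in D3, at 14.2 and 14.9 against 14.9 and 14.0 FPKM, with a difference of 0.01 (95% interval -0.35 to 0.37). Ier3 was at 21.1 and 25.3 against 12.6 and 17.1 FPKM (0.65, 95% interval -0.81 to 2.12), Fosl1 at 3.42 and 5.36 against 5.47 and 5.59 FPKM, and Fosl2 at 18.1 and 15.4 against 30.1 and 20.8 FPKM. Egr1 was at 8.63 and 11.2 against 17.7 and 13.0 FPKM, the libraries apart, and Egr2 at 1.19 and 1.40 FPKM overlapped Ctrl. Fos overlapped as well, and Fosb was at 0.316 and 0.305 FPKM against 0.164 and 0.0770 FPKM.

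**Figure D5:**
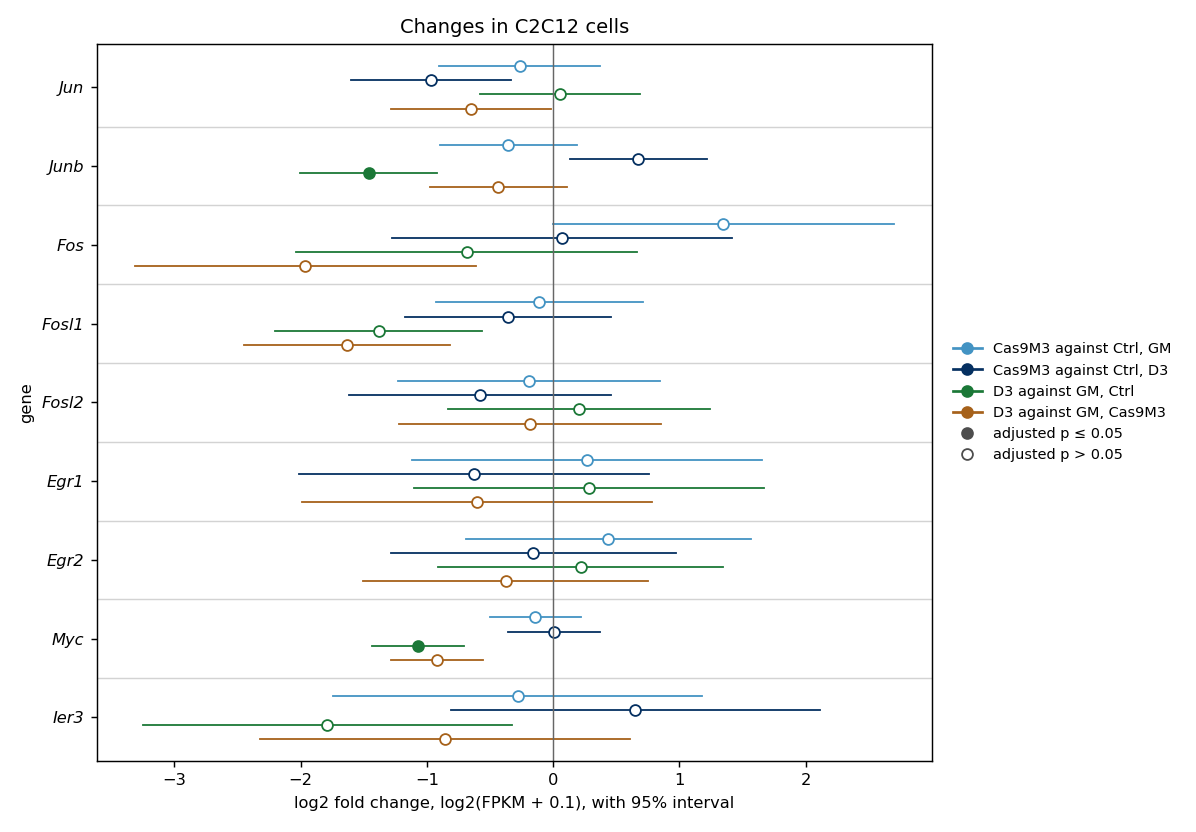
Log2 fold change of 9 genes between Cas9M3 and Ctrl cells in GM and in D3, and between D3 and GM in each line, on the log2(FPKM + 0.1) scale with 95% intervals from limma; filled points have an adjusted p of at most 0.05. Only Junb and Myc from GM to D3 in Ctrl cells are filled, and the Junb estimates for Cas9M3 against Ctrl are -0.35 in GM and 0.67 in D3.

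Related genes in the cells were mostly not called. From GM to D3 in Ctrl cells, Spry1, an inhibitor of receptor tyrosine kinase signalling, rose by 3.25 (1 of 14 feedback genes) and the cytokine gene Lif by 2.92 (1 of 12 AP-1 targets tested). In D3, the EGFR ligand gene Tgfa was higher in Cas9M3 than in Ctrl cells by 3.13 (adjusted p = 0.0341, 1 of 5 ligand and receptor genes tested), at means of 1.33 and 0.0673 FPKM. In the other pathway lists, 0 genes were called in these 2 comparisons. Over all 13824 genes, 158 were called from GM to D3 in Ctrl cells and 1.98% between the lines in D3, in either direction.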

How the data were processed

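RNA-seq libraries of regenerating muscle (10) and of C2C12 cells (8) were analysed; overexpression samples were not analysed here. According to the methods and labels, total RNA was made into mRNA-seq libraries, reads were aligned to GRCm38 with HISAT2 and counted per gene with featureCounts. The authors deposited FPKM values made with the fpkm function of DESeq2, scaled within each table. Versions and the strand setting are not given in the sources used here. At least 97.0% (muscle) and 98.7% (cells) of values up to 20 reads were whole reads within 0.05 of a read. On 1 kb, 1 read was worth 0.0494 to 0.0817 FPKM in muscle and 0.0315 to 0.104 FPKM in the cells, which limits low genes. In the cells the ribosomal locus Gm23935 was at 31998 to 354482 FPKM in replicate 2 libraries and 3367 to 5071 FPKM in replicate 1.

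Genes reaching 0.5 FPKM in 2 or more libraries (16753 and 13824) were fitted on log2(FPKM + 0.1) with limma 3.58.1 (trend, Benjamini-Hochberg) in R 4.3.3, all groups of a table in 1 fit, with calls at adjusted p-values up to 0.05. Fold changes are on that scale and understate low genes. P-values measure the spread between libraries, which may be technical; a two-sided exact permutation test of 2 against 2 cannot go below 0.333. The fit was tested on simulated data with independent noise, in which 200 genes were changed by 4 on the log2 scale. It recovered 179 with 13 false calls in muscle and 164 with 5 false calls in the cells. Smaller changes, such as those of the members, were not simulated. Summaries and plots used Python 3.11.15, pandas 2.3.3, numpy 2.4.6 and matplotlib 3.10.9.

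Members and gene lists were chosen with earlier results of these data known. Named were all 10 members, per list and comparison up to 3 largest rises and 3 largest falls among called genes, and per member the 3 most correlated genes. In the cells, deviations of libraries with the same replicate number correlated at 0.278 to 0.680 in all 6 pairs of groups, so the numbers pair them by this measure; neither labels nor methods give a reason. Alternatives were pseudocounts of 1 and 0.01, no filter, a filter at 1 FPKM, median-ratio and quantile scaling, only the groups compared, a log2 fold threshold of 2, a replicate block, a term for Xist (muscle), and each library left out.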

Additional observations from a re-analysis of the deposited data

Results flagged for a closer look

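Junb was the 1 gene of the 10 whose Cas9M3 and Ctrl libraries did not overlap in opposite directions, lower in Cas9M3 cells in GM and higher in D3. Of all genes, 29.4% did not overlap in GM and 63.5% in D3, in either direction. The share of all genes with opposite directions was not counted, so this pattern may be common. The difference between these effects was 1.03 on the log2 scale, with an adjusted p of 0.436 in limma over all genes (0.288 to 0.651 over the other settings with all libraries), so it did not pass the test.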

How the results depend on the processing

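Of 533 refits of 30 single-gene results, 426 kept their direction and side of the threshold, 87 lost the call, 19 gained it and 1 reversed: Fos on day 1, at -0.28 with all libraries, -1.86 without replicate 1 and 1.30 without replicate 2 of day 1. Members called on day 1 against day 0 were 2, and 1 with a pseudocount of 1, 1 with quantile normalization, and 0 with no filter, with only the groups compared and with the Xist term. In that order, the fits with 0 members called 418 of 31329, 11 of 14485 and 0 of 16753 genes. On day 3 against day 0 they were 3, and 1 with a log2 fold threshold of 2 and 5 with only the groups compared. On day 5 against day 0 they were 0, and 2 with only the groups compared. From day 1 to day 3 they were 2, and 1 with the fold threshold and 0 with no filter, with only the groups compared and with the Xist term. From day 3 to day 5 the 1 call was 0 with the fold threshold, a pseudocount of 0.01, no filter and the Xist term. With the Xist term 0 of all 16753 genes were called there. From day 3 to day 10 they were 2, and 0 with the fold threshold and 1 with the Xist term. In the cells, Cas9M3 against Ctrl in D3 gave 2 with only the groups compared, and D3 against GM in Ctrl gave 2, and 0 with the fold threshold and with only the groups compared, and 1 with a pseudocount of 0.01, no filter and quantile normalization. The fold threshold is stricter by construction; for the other settings the cause was not tested. Leaving out 1 library gave 0 to 5 on day 1, 2 to 5 on day 3, 0 to 2 on day 5 and 0 on day 10 against day 0, 0 to 3 from day 1 to day 3, 0 to 1 from day 3 to day 5 and 1 to 2 from day 3 to day 10. In the cells it gave 0 to 1 for Cas9M3 against Ctrl in D3, 0 to 3 for D3 against GM in Ctrl, 0 to 1 in Cas9M3 and 0 elsewhere. From day 3 to day 10, 1 was called without replicate 1 (Fosl2) or replicate 2 (Junb) of day 3 and without replicate 1 of day 10 (Junb). Where a group is left with 1 library, that library is assumed to vary like the other groups. The number of genes called over all genes also changed between these fits. Member counts from them are therefore not read as results about the members.

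With the replicate block in the cells, the members called from GM to D3 in Ctrl cells were 2 as without it (Junb adjusted p = 0.0372, Myc adjusted p = 0.0316), no other member was called, and genes called were 411 against 158 there and 505 against 274 for Cas9M3 against Ctrl in D3. In muscle, 2 of 10 correlations between same-numbered libraries were over 0.1 (-0.019 to 0.211), so the numbers are only names; with the block, members called were 2 on day 1 (Myc and Ier3, with Fosl1 lost at an adjusted p of 0.0533), 2 on day 3 (Fosl2 and Junb, with Egr2 lost), 0 on day 5 and 0 on day 10 against day 0. Quantile normalization moved the median of all genes on day 3 by -0.12. The order of members by level did not change in any of the 9 groups with median-ratio scaling. This is a weak check, because a factor per library cannot reorder genes within that library. Without a filter Fosb was tested and called in 0 comparisons (adjusted p of at least 0.262).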
